A study of Mus musculus with 16 samples.

Results

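Cyclic AMP acts on more proteins than protein kinase A (PKA), and the transcripts of 9 genes for such other cAMP effectors were examined here in the tibialis anterior, a hindlimb muscle of the mouse made up largely of fast-twitch fibres. The 9 genes were chosen by symbol and all 9 have a row among the 14538 genes of the table: Rapgef3 and Rapgef4, Rapgef2 and Rapgef6, the Popeye genes Bves, Popdc2 and Popdc3, and the channel genes Hcn2 and Hcn4. The muscles came from wild-type male C57BL/6 mice (C57BL/6J in the study's methods), of which 6 received GDF15, 5 received vehicle and 5 were pair-fed, and each mouse gave 1 library. GDF15 is a circulating hormone that lowers food intake through a receptor in the hindbrain. All mice were given the NASH diet, an obesogenic diet that injures the liver, and were kept at about 29 °C from 8 weeks of age. They were housed singly once assigned to their treatment groups. Recombinant GDF15 was injected under the skin once daily at 0.3, 1 or 5 nmol/kg, and the labels do not say which of these doses the sequenced mice received. Pair-fed mice were given as much food as the matching GDF15 group had eaten on the previous day, so that GDF15 against pair-fed compares groups with matched food intake and pair-fed against vehicle compares different intakes without GDF15. The series asks whether GDF15 raises cAMP signalling through PKA in this muscle relative to pair-feeding, and the genes below are the other proteins on which the same second messenger could act.

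Rapgef3 and Rapgef4 encode EPAC1 and EPAC2, exchange factors that load the small GTPases Rap1 and Rap2 with GTP when cAMP binds them. Rapgef2 and Rapgef6 encode related Rap exchange factors with a cyclic nucleotide-binding-like domain, and whether cAMP regulates them is debated. Popeye proteins are membrane proteins of striated muscle that bind cAMP through the Popeye domain, and inherited defects of BVES cause muscular dystrophy and heart block in people. Hcn2 and Hcn4 encode pacemaker channels that open on hyperpolarization and are eased open by direct binding of cAMP, which is best known from the sinus node of the heart.

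The Popeye proteins on one side and the EPAC proteins and channels on the other bind cAMP through different pockets, and coding stretches of these pockets are shown because cAMP binding is what the genes have in common. In the Popeye genes the stretch joins a pair of conserved motifs, whose 4 codons each are in capitals at both ends.
Bves: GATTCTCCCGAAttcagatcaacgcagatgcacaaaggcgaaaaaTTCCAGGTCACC
Popdc2: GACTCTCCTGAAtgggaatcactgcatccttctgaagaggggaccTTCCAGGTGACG
Popdc3: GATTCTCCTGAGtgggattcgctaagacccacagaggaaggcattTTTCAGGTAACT
In the EPAC and channel genes the stretch is a phosphate-binding cassette of a cyclic nucleotide-binding domain, not necessarily the only one of the gene. Its capitals mark the codons of the opening pair of residues and of the arginine that holds the phosphate of cAMP.
Rapgef3: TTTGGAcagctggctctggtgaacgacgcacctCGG
Rapgef4: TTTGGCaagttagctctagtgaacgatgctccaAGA
Hcn2: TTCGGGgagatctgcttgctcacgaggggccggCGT
Hcn4: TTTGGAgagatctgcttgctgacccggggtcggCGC
All 7 stretches lie in frame within the coding exons of GENCODE vM21 on GRCm38, the build that the submitters' processing notes call mm10. Over the 57 bases of the Popeye stretch, Popdc2 and Popdc3 shared 66.7% of bases, Bves and Popdc2 57.9% and Bves and Popdc3 45.6%. Over the 36 bases of the cassette, Rapgef3 and Rapgef4 shared 72.2% and Hcn2 and Hcn4 80.6%. The cassette shown for Rapgef4 is at chr2:72198792-72198827 on the plus strand in exon 14 of 31. The one shown for Rapgef3 is at chr15:97758920-97758955 on the minus strand in exon 10 of 28. The Popeye stretches of Bves (chr10:45347843-45353755) and Popdc3 (chr10:45316489-45317704) each cross an intron, as does that of Popdc2 (chr16:38369542-38373824). Bves and Popdc3 are neighbouring coding genes on the plus strand of chromosome 10, separated by 17320 bases.

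The libraries held an estimated 9486310 to 15039282 reads, with medians of 13888125 in the vehicle, 12131446 in the GDF15 and 14283795 in the pair-fed group. Values below are normalized counts, which are the reads after the authors' scaling with DESeq2 size factors, transformed back from the deposited log2 values, and they are given per mouse. Markers of fast fibres (Myh4, Myh1, Myh2, Actn3, Tnni2, Tnnt3) summed to between 1351320 and 1678600 normalized counts per library, and those of slow fibres to between 486 and 2657. The ranges of the marker sums overlapped between each pair of groups for all 11 cell type lists, although single markers differed. GDF15 mouse 1 had a slow fibre sum of 2251 (the next in its group had 1193) and pair-fed mouse 3 had one of 2657 (the next had 1223).

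Among the 9 genes, the Popeye genes were the most abundant and the channels and Rapgef4 the least. To compare genes, normalized counts were divided by the length of the longest coding transcript in kilobases. In vehicle mice this level was 384 ± 36.8 for Popdc2, 288 ± 13.3 for Popdc3 and 228 ± 8.12 for Bves (SD, n = 5). These levels were followed by Rapgef3 at 57.9 ± 2.66, Rapgef2 at 39.8 ± 3.14 and Rapgef6 at 13.8 ± 3.30 normalized counts per kilobase. The lowest levels were those of Hcn4 at 6.22 ± 1.15, Rapgef4 at 5.86 ± 2.36 and Hcn2 at 5.04 ± 1.02 normalized counts per kilobase. The ranges of neighbours in this order did not overlap, except among Hcn4, Rapgef4 and Hcn2, whose order is not resolved. The ratio of Rapgef4 to Rapgef3 normalized counts, the EPAC isoforms, was 0.104 ± 0.038 in vehicle mice (n = 5). The order of the means was the same with the median length of the coding transcripts, but the gaps were not. With that length Popdc3, at 390 ± 18, overlapped with Popdc2, at 400.3 ± 38.4, and Rapgef6, at 33.0 ± 7.88, overlapped with Rapgef2, at 42.2 ± 3.33. The spread between vehicle mice differed among the genes too. Bves varied least, with a coefficient of variation of 3.56%, beside 4.60% for Rapgef3 and 4.62% for Popdc3. Rapgef4 varied most, with 40.2%, beside 23.9% for Rapgef6 and 20.1% for Hcn2. Rapgef4 rested on an estimated 11.3 to 57.9 reads per library, so that counting error adds to its spread.

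**Figure D1:**
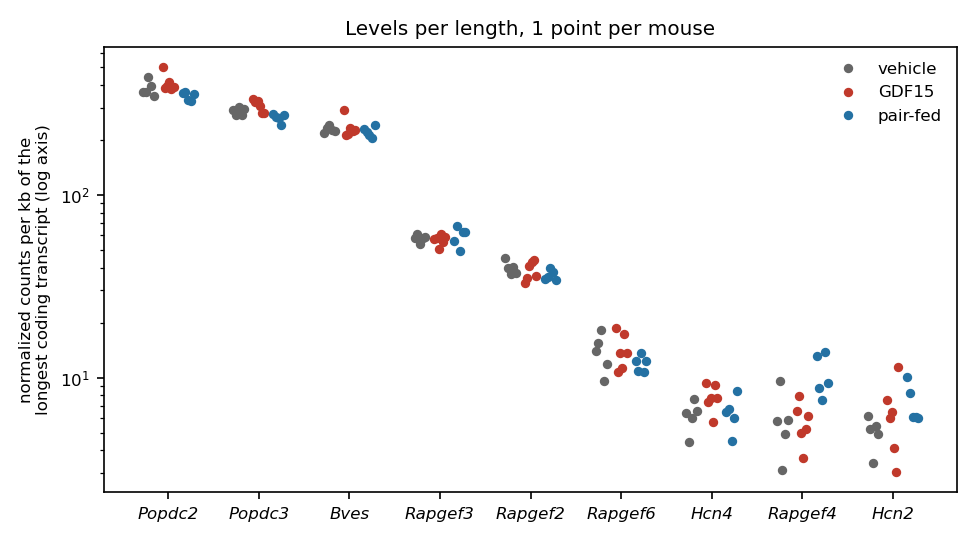
Levels of the 9 genes in normalized counts per kilobase of the longest coding transcript on a log axis, 1 point per mouse, coloured by group and ordered by the vehicle mean. The 3 Popeye genes lie above 200 in every mouse and Hcn4, Rapgef4 and Hcn2 share the lowest band in vehicle mice.

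Across the 3 comparisons, 1 of the 9 genes passed both thresholds, which the study set for this muscle at an adjusted p of 0.1 and a log2 fold change of 0.6 in either direction. This was Rapgef4 in pair-fed against vehicle mice. In that comparison 0.819% of the 11841 tested genes passed both thresholds (0.329% as higher in pair-fed mice), and 18.9% of them, against 1 of the 9, had an unadjusted p under 0.05. Against pair-fed mice, GDF15-treated mice had 0 of the 9 genes past both thresholds in limma, against 0.279% of all tested genes, and 3 of the 9 at an unadjusted p under 0.05 against 13.2% of all. Popdc3 alone of the 9 passed the adjusted p there, as 2.17% of all tested genes did. In GDF15-treated against vehicle mice, 0 of the 9 passed both thresholds in limma, against 0.304% of all, and 0 passed an unadjusted p under 0.05, against 11% of all. GDF15-treated and pair-fed mice did not overlap for 2 of the 9 genes (1.77% of all tested genes). No such gene was found between GDF15-treated and vehicle mice (1.65% of all) or between pair-fed and vehicle mice (5.44% of all). In this order of comparisons the median log2 fold change of the 9 genes was 0.07, 0.05 and -0.04, beside 0.00 for all tested genes in each comparison. The pair-fed mice enter both comparisons in which a gene of the group stood out, so those comparisons are not independent of each other. All 9 genes passed the minimum mean of 10 normalized counts.

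**Figure D2:**
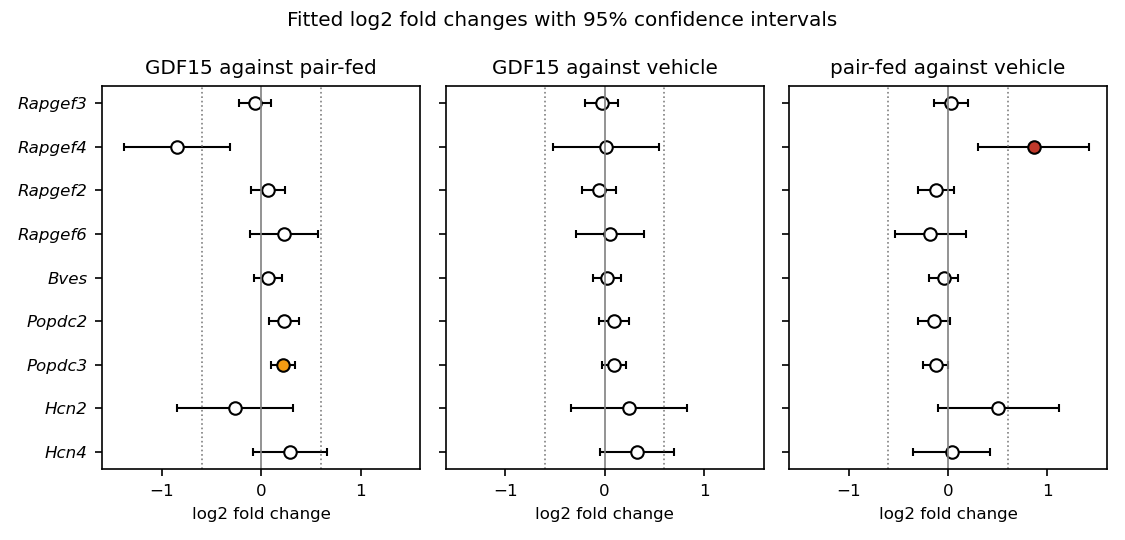
Fitted log2 fold changes of the 9 genes with 95% confidence intervals from limma in the 3 comparisons, with dotted lines at 0.6 in size. The filled red point (Rapgef4, pair-fed against vehicle, 0.86) passed both thresholds and the orange point (Popdc3, GDF15 against pair-fed, 0.22) passed the adjusted p alone.

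Rapgef4, the gene of EPAC2, was higher in pair-fed than in vehicle mice. Vehicle mice 1 to 5 had 24.2, 40.1, 13.0, 20.6 and 24.6 normalized counts. Pair-fed mice 2 to 6 had 54.8, 36.7, 31.7, 57.7 and 38.8. GDF15-treated mice 1 to 6 had 27.3, 33.0, 20.8, 15.13, 21.8 and 25.9. Every pair-fed mouse was above the vehicle median, but vehicle mouse 2 was higher than 3 of the pair-fed mice, so these groups overlapped. The means were 24.5 ± 9.86 in vehicle (SD, n = 5), 24.0 ± 6.17 in GDF15 (n = 6) and 43.9 ± 11.6 in pair-fed mice (n = 5). Pair-fed mice were 1.82-fold higher than vehicle mice (95% confidence interval 1.24 to 2.68), a log2 fold change of 0.86 ± 0.27 (SE) on the log2(normalized count + 1) scale with a Benjamini-Hochberg adjusted p of 0.0806 in limma. In bulk tissue, more cells that carry a transcript and more transcript per cell cannot be told apart.

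Markers of other cells and of fibre types also differed between these groups, and their part in the Rapgef4 values was not tested. Kdr, a receptor of endothelial cells, had 1230 ± 72.5 normalized counts in vehicle, 873 ± 110.2 in pair-fed and 783 ± 92.7 in GDF15-treated mice, and neither of the latter groups overlapped with vehicle. Its log2 fold change against vehicle was -0.50 in pair-fed mice (adjusted p = 0.0047 in limma) and -0.66 in GDF15-treated mice (adjusted p = 0.0012), the latter past both thresholds. Counts of higher and lower genes in a list go by the sign of the fitted log2 fold change. Of the 8 endothelial markers, 7 were lower in pair-fed and 8 in GDF15-treated than in vehicle mice, with sums of 5715 to 6746 normalized counts in vehicle, 5062 to 6118 in pair-fed and 4937 to 5814 in GDF15-treated mice. The 6 Schwann cell markers all had negative log2 fold changes in pair-fed against vehicle mice, with sums of 445 to 1271 in pair-fed, 690 to 1062 in vehicle and 838 to 1250 in GDF15-treated mice, and 0 passed the adjusted p in limma. In pair-fed against vehicle mice, most markers were also lower for smooth muscle and pericytes (5 of 6, median log2 fold change -0.12), fibroblasts (4 of 5, median -0.16) and macrophages (4 of 5, median -0.16), with 0 past the adjusted p in limma. Other lists had mostly positive log2 fold changes there, again with 0 markers past the adjusted p in limma. These were the adipocyte markers (6 of 6 higher, median log2 fold change 0.58), with sums of 216 to 600.2 in pair-fed and 85.8 to 402 in vehicle mice, and the slow fibre markers (5 of 6 higher, median 0.44), with sums of 486 to 2657 and 686 to 1290. Among fast fibre genes, the myosin gene Myh1 was lower in pair-fed than in vehicle mice (log2 fold change -0.68, adjusted p = 0.0123, past both thresholds) and Actn3, which encodes a fast fibre actinin, was higher (0.33, adjusted p = 0.0167).

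The call for Rapgef4 depended on which libraries were in the fit. It was lost without vehicle mouse 1 (adjusted p = 0.124), 3 (0.181), 4 (0.137) or 5 (0.129) and without pair-fed mouse 2 (0.186), 5 (0.190) or 6 (0.126), all in limma with Benjamini-Hochberg adjustment. Without those mice the log2 fold change lay between 0.67 and 0.90. Over all 16 libraries left out in turn it lay between 0.67 and 1.06, and it stayed past both thresholds in 9 of the 16 fits. With only pair-fed and vehicle mice in the fit, the fold change was the same and the adjusted p was 0.106.

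**Figure D3:**
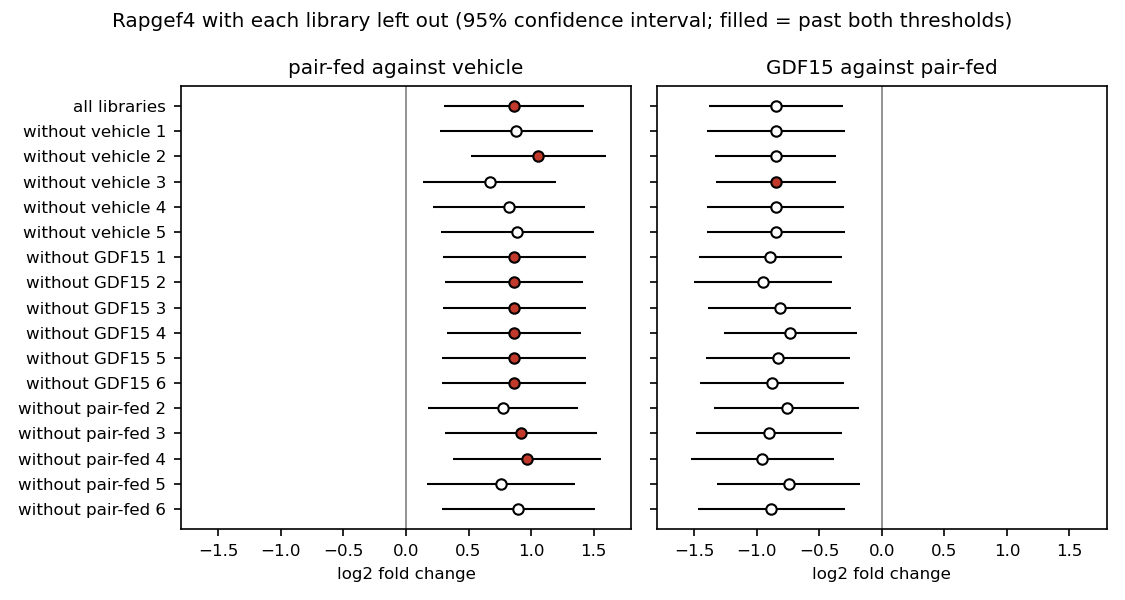
Log2 fold change of Rapgef4 with its 95% confidence interval, with all libraries and with each library left out in turn, for pair-fed against vehicle (left) and GDF15 against pair-fed (right). Filled points passed both thresholds, which held for all libraries and 9 of 16 left-out libraries on the left and for 1 of 16 on the right.

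Against the pair-fed mice, Rapgef4 in GDF15-treated mice was lower by value but did not pass the adjusted p in the fit with no covariate. Of the GDF15-treated mice, 5 of 6 lay below the lowest pair-fed mouse, and GDF15 mouse 2, at 33.0, lay above only pair-fed mouse 4, at 31.7. The fitted difference in log2 was -0.85 ± 0.25 (SE, 95% confidence interval -1.38 to -0.31), with an adjusted p of 0.130 in limma. With the mouse numbers as a replicate block it was -0.88 (adjusted p = 0.0634 in limma), past both thresholds. With a depth covariate it was -0.65 (adjusted p = 0.378 in limma), which did not pass. GDF15-treated and vehicle mice differed by 0.02 in log2 fold change (95% confidence interval -0.52 to 0.55, adjusted p = 0.993), an interval that still allows a 1.47-fold higher or a 0.698-fold level.

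Rapgef3, the gene of EPAC1 and the more abundant isoform, did not pass in any comparison. Its normalized counts were 232.0, 244.4, 215.1, 231.3 and 236.2 in vehicle mice. They were 228.3, 232.2, 202.8, 245.9, 220.2 and 234.5 in GDF15-treated mice. They were 223.7, 271.0, 197.7, 249.5 and 251.1 in pair-fed mice. The groups overlapped, but the pair-fed mice spread more widely (SD 28.4) than the vehicle mice (SD 10.7), with 3 of 5 above and 1 of 5 below every mouse of the other groups. Pair-fed against vehicle mice had a log2 fold change of 0.03 (95% confidence interval -0.14 to 0.21) and GDF15 against pair-fed mice had one of -0.06 (-0.23 to 0.10), so a difference of the size fitted for Rapgef4 lay outside the intervals for Rapgef3. The ratio of Rapgef4 to Rapgef3 was 0.185 ± 0.049 in pair-fed mice, between 0.135 and 0.245, beside 0.104 ± 0.038 in vehicle and 0.106 ± 0.027 in GDF15-treated mice.

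**Figure D4:**
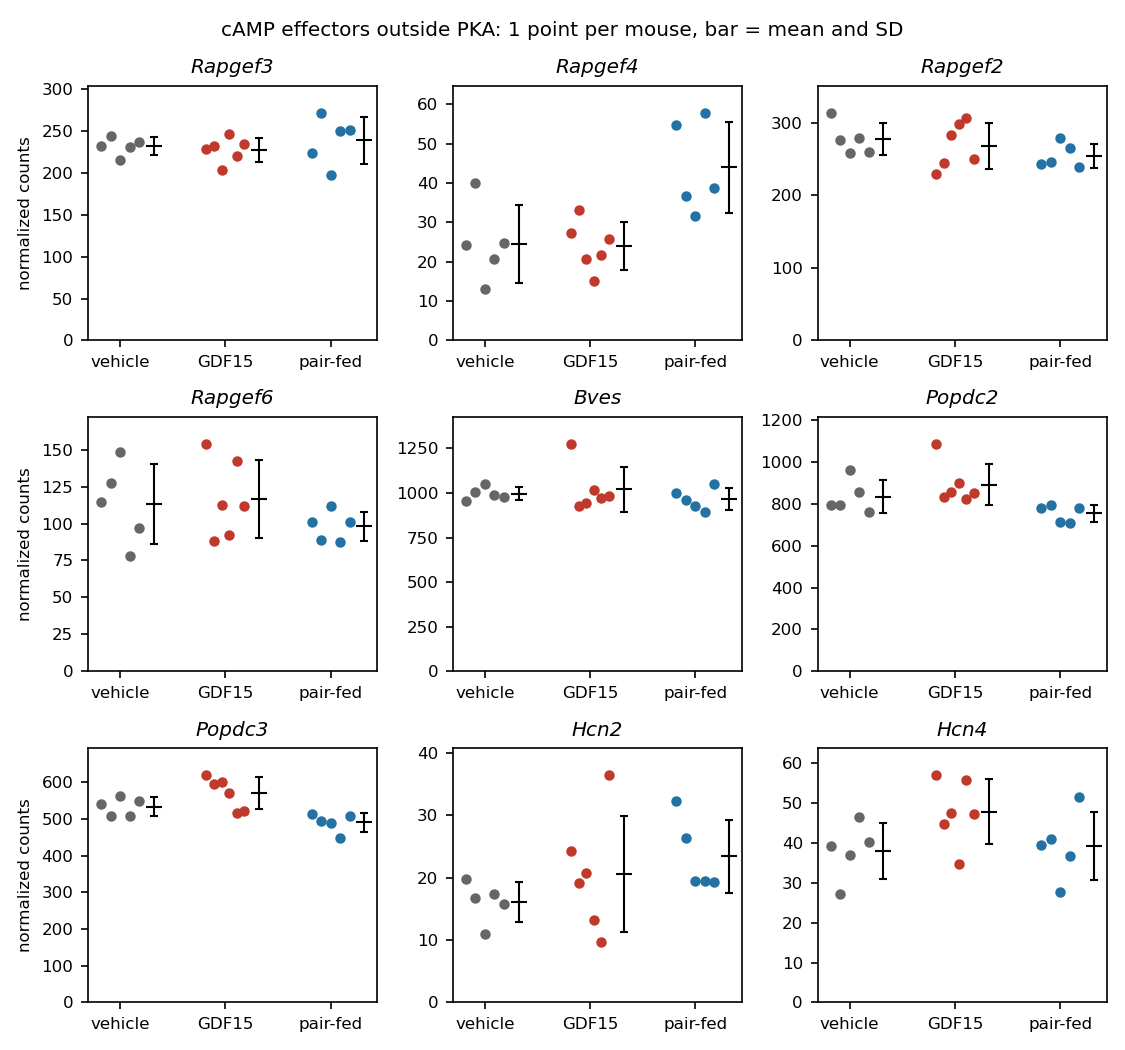
Normalized counts of the 9 genes in every mouse (vehicle grey, GDF15 red, pair-fed blue), with the mean and SD of each group as a bar. In the Rapgef4 panel 2 pair-fed mice lie above every other mouse, and in the Popdc2 and Popdc3 panels the lowest GDF15-treated mouse lies above the highest pair-fed mouse.

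The remaining Rap exchange factors did not pass in any comparison. Rapgef2 had 313.0, 276.3, 258.5, 279.2 and 260.3 normalized counts in vehicle mice, between 229 and 306 in GDF15-treated mice with a median of 266, and 242.8, 246.5, 278.5, 265.1 and 239.5 in pair-fed mice. The pair-fed mice sat within the range of the GDF15-treated mice and 4 of 5 lay below the vehicle median. Pair-fed against vehicle mice had a log2 fold change of -0.12 (95% confidence interval -0.30 to 0.06, adjusted p = 0.474 in limma). Rapgef6 had 114.3, 127.1, 148.4, 78.2 and 97.2 normalized counts in vehicle mice, between 88.0 and 153.6 in GDF15-treated mice with a median of 112, and 100.7, 88.9, 111.6, 87.5 and 101.3 in pair-fed mice. All 5 pair-fed mice were below the vehicle median of 114, but the vehicle group spread beyond them on both sides. For GDF15 against pair-fed mice the log2 fold change was 0.23 (95% confidence interval -0.12 to 0.57, adjusted p = 0.587 in limma).

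Among the Popeye genes, Popdc3 and Popdc2 had slightly higher values in GDF15-treated than in pair-fed mice, without overlap, and only Popdc3 passed the adjusted p. Bves overlapped between these groups. Popdc3 had 619, 596, 602, 570, 517 and 521 normalized counts in GDF15-treated mice. Pair-fed mice had 512, 495, 489, 448 and 508, and vehicle mice had 542, 509, 562, 507 and 549. The lowest GDF15-treated mouse, at 517, lay just above the highest pair-fed mouse, at 512, and the vehicle mice bridged both groups. The means were 571 ± 43.1 in GDF15-treated (n = 6), 490 ± 25.7 in pair-fed and 534 ± 24.6 in vehicle mice (n = 5 each). GDF15-treated against pair-fed mice had a log2 fold change of 0.22 ± 0.06 (SE), a 1.16-fold difference (95% confidence interval 1.07 to 1.26) with an adjusted p of 0.0830 in limma. This passed the adjusted p and stayed well under the fold change threshold. Among all tested genes, 0.929% passed the adjusted p in this direction.

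Popdc2 had 1083, 830, 857, 896, 822 and 849 normalized counts in GDF15-treated mice and 779, 794, 712, 708 and 777 in pair-fed mice. Vehicle mice had 795, 795, 962, 854 and 758. The GDF15-treated mice lay above all pair-fed mice, and vehicle mice were found in and between both ranges. The log2 fold change of GDF15 against pair-fed mice was 0.23 ± 0.07 (SE), a 1.18-fold difference (95% confidence interval 1.06 to 1.31), with an adjusted p of 0.144 in limma, which did not pass.

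Bves, the Popeye gene with the smallest spread in vehicle mice, had 954, 1008, 1049, 990 and 979 normalized counts there. GDF15-treated mice had 1274, 928, 945, 1019, 973 and 984, and pair-fed mice had 1000, 962, 928, 895 and 1049. Apart from GDF15 mouse 1, at 1274, all mice lay between 895 and 1049 and the groups overlapped. Between GDF15-treated and pair-fed mice the log2 fold change was 0.07 (95% confidence interval -0.07 to 0.21, adjusted p = 0.694 in limma). The ratio of Popdc2 to Bves lay between 0.844 and 0.907 in GDF15-treated mice and between 0.741 and 0.825 in pair-fed mice. This ratio did not overlap between those groups, and vehicle mice ranged from 0.775 to 0.917. The ratio of Popdc3 to Bves did overlap, with 0.486 to 0.642 in GDF15-treated, 0.485 to 0.527 in pair-fed and 0.505 to 0.5678 in vehicle mice. GDF15 mouse 1 carried the highest value of its group for all 3 Popeye genes and also the slow fibre sum of 2251 given above. Pair-fed mouse 3 had the higher slow fibre sum of 2657. Its values were 962 for Bves, 794 for Popdc2 and 495 for Popdc3, and only that of Popdc2 was the highest of its group. The part of the slow fibres in the Popeye values was not tested. Nor was that of Actn3, with a log2 fold change of -0.27 in GDF15-treated against pair-fed mice (adjusted p = 0.0678 in limma), or of the other cell types. Of the 6 fast fibre markers, 2 were higher and 4 lower in that comparison (median -0.06). Every tested marker had a positive log2 fold change there for fibroblasts (5 of 5), macrophages (5 of 5), Schwann cells (6 of 6), smooth muscle and pericytes (6 of 6) and red blood cells (3 of 3), with median log2 fold changes of 0.35, 0.56, 0.38, 0.04 and 1.17, and 0 of them passed the adjusted p in limma. The sums of these 5 lists overlapped between the groups. In the other lists, fewer of the tested markers were higher. These were 4 of 8 for endothelium (median -0.01), 3 of 6 for adipocytes (-0.02) and 4 of 6 for slow fibres (0.05). For heart it was 1 of 2 (0.08) and for satellite cells 0 of 2 (-0.20). Without GDF15 mouse 1 the log2 fold change of GDF15 against pair-fed mice was 0.19 for Popdc3 (adjusted p = 0.126 in limma) and 0.17 for Popdc2 (adjusted p = 0.182). The adjusted p of Popdc3 thus no longer passed. It also missed 0.1 without GDF15 mouse 2, 3 or 4, without vehicle mouse 5 and without pair-fed mouse 2, 4, 5 or 6 (adjusted p = 0.102 to 0.226 in limma).

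**Figure D5:**
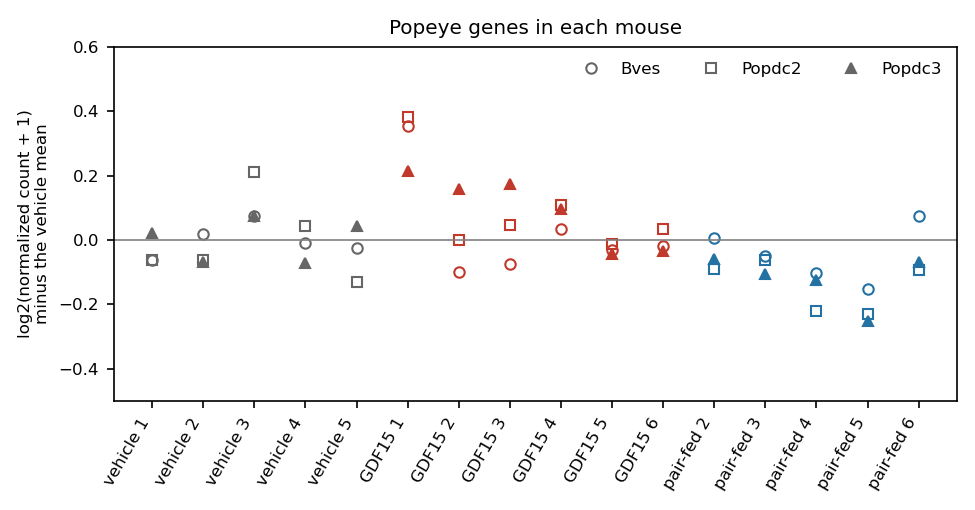
The 3 Popeye genes in every mouse as log2(normalized count + 1) minus the mean of the vehicle mice (circle Bves, square Popdc2, triangle Popdc3). GDF15 mouse 1 is the highest for each gene, and in pair-fed mice all points of Popdc2 and Popdc3 lie below the vehicle mean.

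Against vehicle mice, Popdc3 and Popdc2 were neither higher with GDF15 nor lower with pair-feeding by the test. Popdc3 was at 0.09 (95% confidence interval -0.03 to 0.22) in GDF15 and at -0.12 (-0.25 to 0.00) in pair-fed mice, as log2 fold changes against vehicle. For Popdc2 these values were 0.09 (-0.06 to 0.24) and -0.14 (-0.30 to 0.02). Each fold change against vehicle was thus smaller than the one between GDF15-treated and pair-fed mice.

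The pacemaker channel genes had low counts and did not pass in any comparison. Of the genes in the table, 31.9% had a lower mean than Hcn4 and 24.2% a lower mean than Hcn2. Hcn4 had 39.3, 27.2, 37.0, 46.5 and 40.2 normalized counts in vehicle mice. GDF15-treated mice had 57.0, 44.8, 47.5, 34.8, 55.8 and 47.2, and pair-fed mice had 39.4, 41.1, 27.7, 36.6 and 51.5. Of the GDF15-treated mice, 5 of 6 lay above the medians of both other groups, with overlap. The log2 fold change was 0.33 against vehicle (95% confidence interval -0.04 to 0.70, adjusted p = 0.527 in limma) and 0.29 against pair-fed mice (-0.08 to 0.66, adjusted p = 0.509). Hcn2 had 19.7, 16.7, 10.9, 17.4 and 15.7 normalized counts in vehicle mice. GDF15-treated mice had 24.2, 19.1, 20.7, 13.2, 9.7 and 36.4, and pair-fed mice had 32.3, 26.4, 19.5, 19.5 and 19.3. All 5 pair-fed mice lay above the vehicle median of 16.7, and the GDF15-treated mice spread over more than the range of both other groups. For pair-fed against vehicle mice the log2 fold change was 0.50 (95% confidence interval -0.10 to 1.11, adjusted p = 0.370 in limma). Hcn2 rested on an estimated 9.89 to 34.2 reads per library. Of the heart markers, Myh6 was present at 76.5 to 309 normalized counts, Myl4 at 71.2 to 207 and Tnni3, a defining marker of heart muscle, at 0 to 5.83.

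The genes around these effectors were taken from 8 lists covering cAMP synthesis and breakdown, PKA subunits, Rap proteins and their effectors, partners of Popeye proteins and other cyclic nucleotide-gated channels. Of 95 listed genes, 87 were in the table and 76 were tested, and 0 passed both thresholds in any of the 3 comparisons in limma. The adjusted p alone was passed by 2 of the 76 in GDF15 against pair-fed mice (2.17% of all tested genes), by 0 in GDF15 against vehicle mice (0.769%) and by 2 in pair-fed against vehicle mice (6.37%). These genes were named after their values were seen. Cav3, whose product caveolin-3 binds Popeye proteins at the muscle membrane, had 465 ± 24.1 normalized counts in GDF15-treated mice against 391 ± 18.7 in pair-fed mice, without overlap (log2 fold change 0.25, adjusted p = 0.0518). Pde4b, a phosphodiesterase that breaks down cAMP, had 829 ± 100.2 normalized counts against 1241 ± 226 in the same groups (log2 fold change -0.57, adjusted p = 0.0302). In pair-fed against vehicle mice, Adcy9, an adenylyl cyclase, had 376 ± 43.5 against 491 ± 42.8 normalized counts (log2 fold change -0.39, adjusted p = 0.0249). Pde4a, another cAMP phosphodiesterase, had 1343 ± 103 against 1710 ± 139 (log2 fold change -0.35, adjusted p = 0.0131).

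The lists as a whole were described by the direction of their tested genes, of which only the 4 genes named above passed the adjusted p. In the PKA and PKG list, 9 of 10 tested genes had a positive log2 fold change in GDF15-treated against pair-fed mice (median log2 fold change 0.10), 4 of 10 were higher in GDF15-treated than in vehicle mice (median -0.02) and 2 of 10 in pair-fed than in vehicle mice (median -0.07). Of the 13 tested genes of cAMP synthesis, 9, 8 and 7 were higher in the same comparisons, with medians of 0.10, 0.08 and 0.00. Of the 15 cAMP phosphodiesterases, 9, 6 and 6 were higher, with medians of 0.05, -0.13 and -0.14. Among the Popeye partners 7, 5 and 4 of 9 were higher, with medians of 0.15, 0.08 and -0.03. On the Rap side, 7, 3 and 4 of the 16 Rap GTPases, exchange factors and inhibitors were higher, with medians of -0.06, -0.07 and -0.07. Of the 11 Rap effectors, 7, 4 and 3 were higher, with medians of 0.02, -0.05 and -0.07. The channel lists were mostly too low to test, with 1 tested gene among the other cyclic nucleotide-gated and HCN channels (0.26, -0.24 and -0.50) and 2 among the HCN regulators (medians -0.05, -0.04 and 0.01). The median over all tested genes was 0.00 in each comparison.

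How the 9 genes varied among mice of the same group was described by Pearson's r of log2(normalized count + 1) over the 16 libraries after the group means were subtracted. These are descriptions over libraries that share their scaling, and in genes of few reads they carry counting noise. Bves and Popdc2 varied together most among the pairs of the 9 genes (r = 0.85), and Popdc2 and Popdc3 (0.53) and Bves and Popdc3 (0.46) less so. GDF15 mouse 1, the highest of its group for all 3 genes, carried part of these values. Without it, a choice made after seeing the data, they were 0.67, 0.37 and 0.24 over 15 libraries. Some pairs across families were about as large as those with Popdc3. These were Rapgef6 and Bves (0.51), Rapgef4 and Hcn2 (0.44), Rapgef2 and Bves (-0.56) and Rapgef2 and Popdc2 (-0.52). Without GDF15 mouse 1 they were 0.28, 0.43, -0.29 and -0.28. Among all tested genes, those most like Bves were Sec61a1, Smpx and Klhl41 (r = 0.91, 0.91 and 0.87; 0.80, 0.72 and 0.52 without GDF15 mouse 1), and those most like Popdc2 were Bves, Habp4 and Rpf2 (0.85, 0.84 and 0.84; 0.67, 0.78 and 0.67 without it). For Popdc3 they were Zfp870, Slc36a2 and Znhit3 (0.85, 0.84 and 0.82). For Rapgef4 they were Fam219b, Gfra2 and Psmc6 (0.84, 0.82 and 0.80), and for Rapgef3 they were Ptprr, Hs3st5 and Nr2f2 (0.87, 0.83 and 0.81). Rapgef2 was followed most closely by Pde8b, Arhgap27 and Dok4 (0.90, 0.88 and 0.85), and Rapgef6 by Homez, Shq1 and Polr3a (0.82, 0.80 and 0.79). For Hcn4 they were Arhgef17, Prkx and Crtc3 (0.87, 0.82 and 0.81), and for Hcn2 they were Shc2, Ube2k and Uggt1 (0.86, 0.83 and 0.82). With any library left out, the values of these genes for the 7 genes other than Bves and Popdc2 stayed between 0.70 and 0.94. The same libraries had picked these genes as the highest among all tested genes, so high values come with that choice. Leaving out 1 of those libraries is therefore no separate check of them.

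The EPAC genes were the pair of close relatives of which only Rapgef4 passed the test against vehicle, and their promoters are shown for that reason. The sequences are those of RefSeq on GRCm38.p6 and span 250 bases before to 50 bases after the annotated start, with the cAMP response element half-site in capitals.
Rapgef4: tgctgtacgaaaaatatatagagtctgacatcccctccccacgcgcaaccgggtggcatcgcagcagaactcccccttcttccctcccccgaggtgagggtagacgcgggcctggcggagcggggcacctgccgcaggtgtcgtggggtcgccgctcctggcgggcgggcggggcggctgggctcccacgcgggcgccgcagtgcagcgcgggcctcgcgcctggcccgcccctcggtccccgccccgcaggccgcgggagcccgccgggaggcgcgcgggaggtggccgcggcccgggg
Rapgef3: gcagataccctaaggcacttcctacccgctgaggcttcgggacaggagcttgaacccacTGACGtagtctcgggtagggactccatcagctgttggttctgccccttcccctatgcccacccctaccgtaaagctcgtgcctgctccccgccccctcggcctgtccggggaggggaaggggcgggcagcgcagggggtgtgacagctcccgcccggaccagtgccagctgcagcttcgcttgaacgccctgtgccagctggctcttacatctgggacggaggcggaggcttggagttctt
The Rapgef4 window, chr2:71980965-71981264 on the plus strand, was 76.7% G and C and the Rapgef3 window, chr15:97767617-97767916 on the minus strand, 65%. Both strands were searched for the full cAMP response element TGACGTCA, its half-site TGACG (which lies within it) and the E-box CACGTG. Rapgef3 held 1 half-site, starting 191 bases before the annotated start, and Rapgef4 held none of the 3 motifs. A promoter was matched for 7 of the 9 genes, and Rapgef6 was the other one with a half-site, starting 47 bases before the start. None of the 7 held the full element or the E-box in this window. Of 32851 mouse promoters of this length, 20.8% held the half-site, 1.79% the full element and 7.15% the E-box.

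Other annotated genes share bases with some of these genes. Antisense genes overlap exons of Rapgef3 (Rapgef3os1 and Rapgef3os2), Rapgef4 (Rapgef4os2, chr2:72224688-72232302) and Popdc3 (Gm15934), and the coding gene Gm21987 overlaps an exon of Popdc2 on the same strand. None of these has a row in the table. The library kit marks strand, but the strand setting of the quantification is not given in the sources used here. The values of Rapgef3, Rapgef4 and Popdc3 could therefore hold reads of their antisense partners. For Popdc2 and Gm21987, strand does not tell reads of the shared bases apart, so Popdc2 could hold such reads under any setting.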

How the data were processed

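RNA from the tibialis anterior of 16 mice was sequenced as paired reads. Per the study's methods and the submitters' processing notes, reads were trimmed with Trim Galore, quantified with Salmon and scaled with DESeq2 (build mm10; versions not given in the sources used here). The table the authors deposited holds log2 values (7.32 to 19.96; 8459 values at the lowest, a count of 0) for 14538 genes. They have the form of the authors' variance stabilizing transformation (DESeq2) and were transformed back to normalized counts with its inverse. In genes with a single transcript, 87.9% to 96.7% of low values per library then lay within 0.1 reads of a whole multiple of 1 step, against 20.0% to 26.9% in genes with over 4 transcripts, so whole reads were not recovered. Depths were estimated from this step.

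Genes were tested where their mean reached 10 normalized counts (11841 genes), with limma 3.58.1 in R 4.3.3 (eBayes with a trend, all 3 groups, no covariate, two-sided) on log2(normalized count + 1), which understates fold changes of low genes. Benjamini-Hochberg adjustment ran over all tested genes. The script was tested on simulated data. Tables were made with Python 3.11.15 and pandas 2.3.3, and gene models are those of GENCODE vM21. The 9 genes and the lists were chosen with earlier results of these data known. All 9 were named, with genes of the pathway lists past both thresholds (0 in the event) and, for each of the 9, the 3 genes with the highest correlation. Cav3, Pde4b, Adcy9, Pde4a and the markers Kdr, Myh1 and Actn3 were named after their values were seen. Whether mouse numbers shared between groups pair mice is not known. Of 14 same-numbered pairs, 0 had a correlation of deviations over 0.1, but such a measure over all genes could miss a pairing by food intake. Other pseudocounts, minimums, scalings, weights and thresholds, a depth covariate, a replicate block and each library left out were tried. Correlations without each library in turn were added after seeing the data.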

Additional observations from a re-analysis of the deposited data

Results flagged for a closer look

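In 3 of 39 groups of values checked, a mouse stood apart from the rest of its group by Dixon's ratio, which chance does in about 1 of 20 groups. Bves in GDF15 mouse 1 was at 1274 normalized counts, with the next GDF15-treated mouse at 1019. Popdc2 in GDF15 mouse 1 was at 1083 normalized counts, with the next at 896. Pde4b in vehicle mouse 3 was at 1318 normalized counts, with the next vehicle mouse at 1026.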

How the results depend on the processing

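Rapgef4 in pair-fed against vehicle mice was the only call among the 9 genes, and their count of calls in that comparison fell from 1 to 0 with a minimum mean of 50 normalized counts (where Rapgef4 was not tested and 6 of the 9 were), on the deposited log2 values (log2 fold change 0.19, which that scale compresses; adjusted p = 0.0689), with only the 2 groups compared and at an adjusted p under 0.05, and was 0 to 1 with a library left out. In GDF15 against pair-fed mice the count was 0 to 1 with a library left out, where leaving out vehicle mouse 3 made Rapgef4 pass (adjusted p = 0.0948 in limma), and 1 with the adjusted p alone (Popdc3). With the mouse numbers as a replicate block it was 1, since Rapgef4 passed (-0.88, adjusted p = 0.0634), and with a depth covariate the fold change of Rapgef4 was -0.65 (adjusted p = 0.378). The block changed no other call at both thresholds among the 9. The cause was not tested. Popdc3 in GDF15 against pair-fed mice had adjusted p-values of 0.0643 to 0.226 over the alternatives, and missed 0.1 with the block (0.150), only the 2 groups (0.167), the depth covariate (0.163), no trend (0.129), no minimum (0.101) and quantile normalization (0.101). Pde4b in the same comparison passed both thresholds with the depth covariate and without GDF15 mouse 5 or 6 or pair-fed mouse 3. Differences near 0 that did not pass changed sign: Rapgef2 in GDF15 against pair-fed mice with the depth covariate (-0.010), and Rapgef4 in GDF15 against vehicle mice on the deposited values (-0.00092), with quantile normalization (-0.021) and with library quality weights (-0.023). With a library left out, the log2 fold changes that changed sign were, against vehicle, those of GDF15 for Rapgef3 (-0.056 to 0.0030), Rapgef4 (-0.18 to 0.21), Rapgef6 (-0.072 to 0.16) and Bves (-0.039 to 0.053), and those of pair-feeding for Rapgef3 (-0.013 to 0.10) and Hcn4 (-0.075 to 0.15). Over all genes, 33 were called for GDF15 against pair-fed mice, 36 for GDF15 against vehicle mice and 97 for pair-fed against vehicle mice; in this order they were 7, 9 and 17 on the deposited values, 257, 91 and 754 with the adjusted p alone and 18, 23 and 56 at an adjusted p under 0.05. For GDF15 against vehicle mice they were 19 with the depth covariate and 20 with the block, and without pair-fed mouse 3 they were 62 for GDF15 against pair-fed mice and 157 for pair-fed against vehicle mice. Depth limits Rapgef4, Hcn2 and Hcn4, with as few as 11.3, 9.89 and 26.0 reads estimated in a library.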
